A study of Mus musculus with 12 samples.

Results

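The data described here are the liver transcript levels of Errfi1 and of 3 members of the EGF receptor family, Egfr, Erbb2 and Erbb3. These 4 genes were chosen by gene name, as 4 of the 51609 rows of a count table, and the set was proposed from the Errfi1 values of the untreated livers, so those values are given below as a description with no test. Bulk RNA-seq was carried out on liver of C57BL/6 mice after rRNA depletion, in 12 libraries from 4 groups of 3 mice. The wild-type groups were Cre-negative littermates with floxed alleles, either untreated (plain drinking water) or given 2% dextran sodium sulfate (DSS), a colitis-inducing agent, in the water for 6 days. The RelaΔhepStat3Δhep groups, labelled as knockouts of Rela and Stat3, were untreated or given DSS in the same way. In these mice Cre is driven by the albumin promoter, so the deletion is placed in hepatocytes while the other cells of the liver keep both genes. The study's methods give an age of 5 to 7 weeks and mice of either sex.

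EGF receptor, encoded by Egfr, is a receptor tyrosine kinase that binds EGF, TGF-alpha, amphiregulin, betacellulin and HB-EGF and signals through RAS, ERK and PI3K in hepatocytes, where it is known for its part in liver regeneration. Erbb3 encodes a receptor for neuregulins with little kinase activity of its own, and Erbb2 encodes a receptor with no known ligand that pairs with the other receptors. Errfi1 encodes MIG6, a feedback inhibitor that binds the kinase domain of the active receptors, and its gene is known to be induced by growth factors, stress and glucocorticoids.

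Estimated counts summed to between 65879529 and 82850098 per library, and 17652 genes were expressed highly enough to be tested. The values below are normalized counts (CPM, counts scaled to the TMM-normalized library size). Xist stood at 903 to 1283 CPM in all 3 DSS-treated RelaΔhepStat3Δhep libraries and at 1143 CPM in the third untreated wild-type library, against 29.0 CPM or less in the other 8. Y-chromosome genes summed to at most 0.12 CPM in the DSS-treated RelaΔhepStat3Δhep libraries, to 30.1 CPM in the third untreated wild-type library and to 175 to 241 CPM in the other 8. DSS treatment and the female pattern of transcripts therefore cannot be told apart in the RelaΔhepStat3Δhep mice. The DSS-treated wild-type libraries did not show this pattern. Genotype among DSS-treated mice therefore cannot be told apart from it either, and it also enters the difference of the responses. Rela stood at 39.5 to 62.3 CPM in the RelaΔhepStat3Δhep libraries and at 39.8 to 55.5 CPM in the wild-type libraries. Stat3 stood at 43.0 to 74.8 CPM and at 45.7 to 330 CPM, so neither whole-gene count separated the genotypes, and the deleted exons were not examined. The hepatocyte marker genes, of which 6 of 7 had a row, summed to between 78980 and 166400 CPM in the 12 libraries, most of it Alb. Of the 6, edgeR and DESeq2 each called 1 lower after DSS in RelaΔhepStat3Δhep mice, the hepatocyte transcription factor Hnf4a, at 1144, 1223 and 1226 CPM untreated and 624, 789 and 797 CPM after DSS, where edgeR called 2.46% of all genes lower and DESeq2 15.6% in either direction. It moved with Egfr in that comparison, and its part in the Egfr values was not tested. The second DSS-treated wild-type library stood apart in the acute-phase gene Lcn2, at 5730 CPM against 14.2 and 196 CPM in its group, and had the lowest TMM factor (0.758).

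The 250 bases before the start site are shown for Errfi1, the member whose level differed most between groups, and for Egfr, the receptor with the highest level. They are RefSeq sequences of GRCm38.p6, on the plus strand, and Errfi1 has 2 start sites. Capitals mark a cAMP response element (TGACGTCA), a TATA element (TATAAA) and a CCAAT box (read here as ATTGG).
Errfi1, chr4:150853546-150853795: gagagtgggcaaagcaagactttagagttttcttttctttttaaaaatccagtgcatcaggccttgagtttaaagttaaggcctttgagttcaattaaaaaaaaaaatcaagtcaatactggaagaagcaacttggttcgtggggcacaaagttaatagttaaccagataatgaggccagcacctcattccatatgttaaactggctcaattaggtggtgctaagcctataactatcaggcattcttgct
Errfi1, chr4:150854820-150855069: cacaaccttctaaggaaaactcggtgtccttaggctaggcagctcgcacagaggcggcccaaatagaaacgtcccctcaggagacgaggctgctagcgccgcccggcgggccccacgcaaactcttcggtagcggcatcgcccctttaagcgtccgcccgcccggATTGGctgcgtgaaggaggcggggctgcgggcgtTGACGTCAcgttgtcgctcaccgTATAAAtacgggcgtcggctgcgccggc
Egfr, chr11:16751953-16752202: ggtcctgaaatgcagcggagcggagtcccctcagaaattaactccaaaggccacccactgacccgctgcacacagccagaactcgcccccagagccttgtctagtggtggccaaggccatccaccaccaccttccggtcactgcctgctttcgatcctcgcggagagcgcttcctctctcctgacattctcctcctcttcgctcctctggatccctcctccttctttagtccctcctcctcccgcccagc
The second Errfi1 window held the CCAAT box at position -85 from the start site, the response element at -51 and the TATA element at -28, together with 3 GC boxes (GGGCGG), which are not capitalised. The search read both strands and was set up after the Errfi1 sequence had been seen. In 32851 windows of the same length the response element was present in 1.55%, the TATA element in 12.4%, the CCAAT box in 33.8% and the GC box in 32.7%. The first Errfi1 window held none of the motifs searched, and the Egfr window held 1 GC box. Neither the STAT motif TTCNNNGAA (7.02% of windows) nor the NF-kB motif (7.25%) was spelled out in any of these 3 windows or in that of Erbb2 (chr11:98412234-98412483). The same held for the AP-1 motif TGANTCA (6.75%), the E-box CACGTG (6.02%) and the nuclear receptor motif AGGTCA (14%).

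Errfi1 (ENSMUSG00000028967) lies on the plus strand of mm9 at chr4:150228028-150243001 and has 3582 exonic bases. In untreated wild-type mice it stood at 271, 438 and 336 CPM, and in wild-type mice given DSS at 1169, 1241 and 756 CPM. All 3 DSS-treated libraries lay above all 3 untreated ones. In untreated RelaΔhepStat3Δhep mice the values were 1306, 1280 and 959 CPM, and in DSS-treated RelaΔhepStat3Δhep mice 933, 870 and 686 CPM. Here all 3 DSS-treated libraries lay below all 3 untreated ones, by a narrow gap between 933 and 959 CPM. The MIG6 transcript was thus 3.03-fold higher after DSS in wild-type liver (log2 change 1.60, with a standard error, SE, of 0.25) and 1.42-fold lower in RelaΔhepStat3Δhep liver (-0.51, SE 0.24). Untreated RelaΔhepStat3Δhep liver was 3.40-fold above untreated wild-type liver (1.76, SE 0.25). The 2 responses differed by -2.11 on the log2 scale (SE 0.34). These 4 values use the untreated libraries from which Errfi1 was proposed, and no test is given for them. In bulk liver a change in the number of cells of a type and a change in RNA per cell cannot be told apart.

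The order of the Errfi1 group means was untreated RelaΔhepStat3Δhep (1182 ± 193 CPM, SD, n = 3), DSS-treated wild-type (1055 ± 262), DSS-treated RelaΔhepStat3Δhep (830 ± 128) and untreated wild-type (348 ± 84.2). Each of the first 3 overlapped with its neighbour in this order, and the highest untreated wild-type library (438 CPM) lay below every library of the other groups. The comparison of genotypes in DSS-treated mice uses no untreated library and was tested. Errfi1 was 1.27-fold lower in RelaΔhepStat3Δhep mice, a difference within the spread between replicates (log2 change -0.35, 95% interval -0.87 to 0.17, edgeR adjusted p = 0.552). Without single libraries this value ran from -0.54 to -0.22, and the wild-type response ran from 1.45 to 1.80 (1.46 without the second DSS-treated library). After DSS in wild-type mice 4 of 5 Kupffer cell and 4 of 5 monocyte and neutrophil markers were higher at an unadjusted p under 0.05 (none called by edgeR, 0 and 4 by DESeq2), beside 14.5% of all genes at that p and 5.98% called by DESeq2, and 6 of 6 lymphocyte markers were lower by sign, 4 of them at that p. Their sums, untreated and after DSS, were 210 to 441 and 344 to 768 CPM for Kupffer cells, 7.87 to 16.7 and 9.94 to 97.5 CPM for monocytes and neutrophils, and 5.02 to 7.71 and 2.5 to 3.09 CPM for lymphocytes. The high end of the monocyte and neutrophil sums is 1 library, the second DSS-treated one, in which S100a8 stood at 38.2 CPM against 1.86 and 0.843 CPM in the other two and 0.765 to 1.18 CPM untreated. Of 5 sinusoidal endothelial cell markers 0 were higher by sign and DESeq2 called 1 lower, and of 5 cholangiocyte markers DESeq2 called 1 higher. Of 9 female-biased liver genes 1 was higher by sign and DESeq2 called 4 lower (5.98% of all genes in either direction). Their sums were 443 to 3893 CPM (median 552) untreated and 117 to 470 CPM after DSS. In these lists edgeR called no gene. The part of all these markers and sex-biased genes in the wild-type changes of Errfi1 and of the pathway genes was not tested. With a term for the libraries high in Xist the wild-type response was 1.58 (SE 0.30) and the untreated difference 1.74 (SE 0.30). The RelaΔhepStat3Δhep response was -0.43 (SE 0.45). The third untreated wild-type library, high in Xist but with Y-chromosome genes at 30.1 CPM, lay between the other 2 in Errfi1. The part of the sex-linked pattern in the Errfi1 values was not tested.

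**Figure D1:**
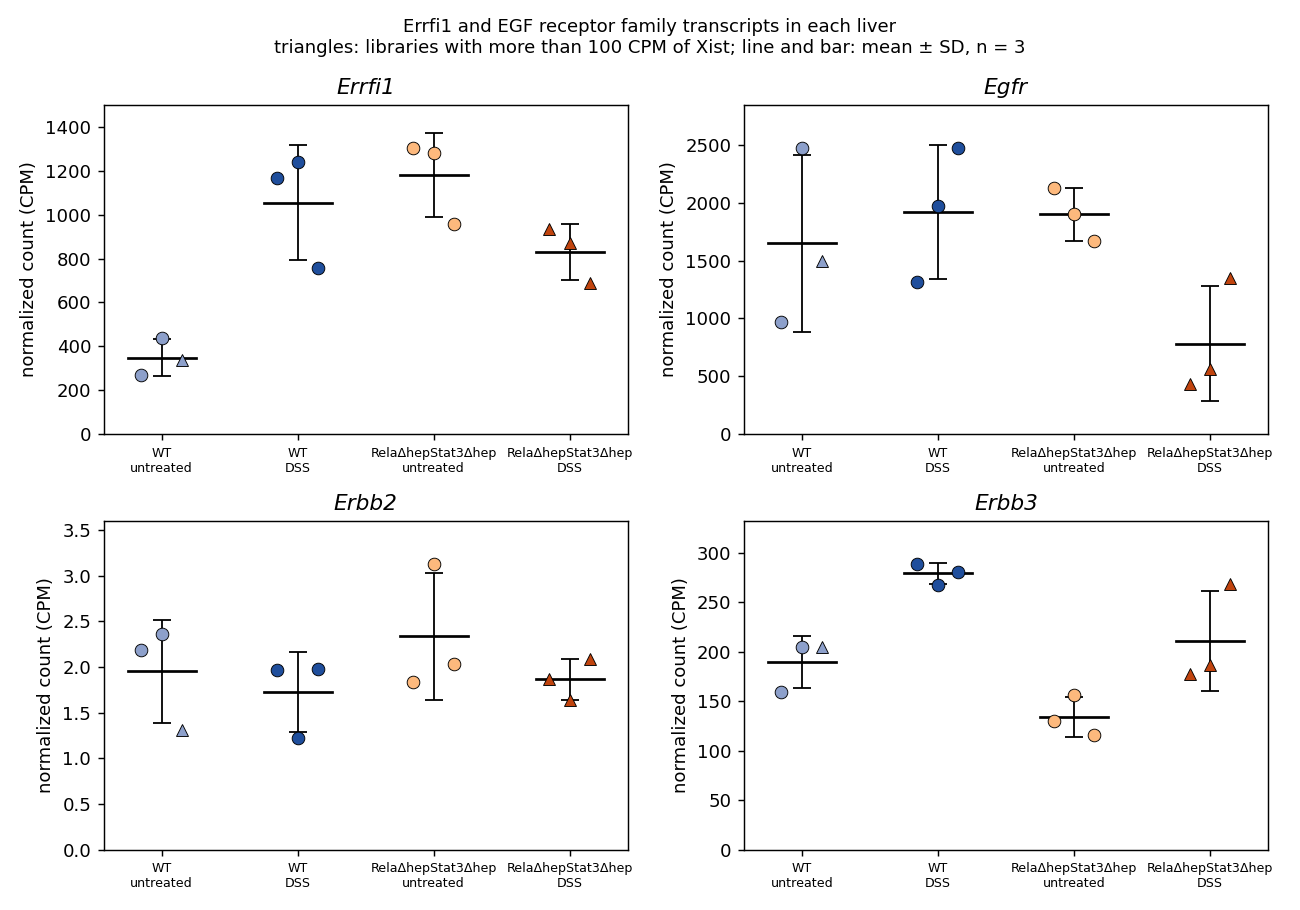
Normalized counts (CPM, linear axes from 0) of the 4 genes in the 12 libraries, with the mean and SD of each group of 3 livers and triangles for the 4 libraries high in Xist. Untreated wild-type livers sit at 271 to 438 CPM of Errfi1, below all other livers, and DSS-treated RelaΔhepStat3Δhep livers sit lowest by mean in Egfr.

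Egfr (ENSMUSG00000020122; plus strand of mm9, chr11:16652206-16818161, 11326 exonic bases) stood at 970, 2475 and 1498 CPM in untreated wild-type mice and at 1315, 1971 and 2477 CPM after DSS. These groups overlapped, and the difference was within the spread between replicates (log2 change 0.22, 95% interval -0.70 to 1.14, edgeR adjusted p = 0.866). In untreated RelaΔhepStat3Δhep mice the receptor transcript stood at 2127, 1906 and 1665 CPM, and in DSS-treated RelaΔhepStat3Δhep mice at 428, 559 and 1349 CPM. All 3 DSS-treated libraries lay below the 3 untreated ones, with the third well above the other two. The group mean was 2.44-fold lower after DSS (log2 change -1.29, SE 0.43, 95% interval -2.22 to -0.35), which did not pass the threshold in edgeR (adjusted p = 0.0893) and passed it in DESeq2 (adjusted p = 0.0109). Without the third DSS-treated RelaΔhepStat3Δhep library the value was -1.94 and the edgeR adjusted p 0.0187, the lowest of a range of 0.0187 to 0.264 over the left-out libraries.

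Between the untreated genotypes Egfr overlapped (log2 change 0.20, SE 0.42, no test), with values from -0.066 to 0.62 over the left-out libraries. In DSS-treated mice it was 2.47-fold lower in RelaΔhepStat3Δhep mice (-1.30, SE 0.43), with 1 library of each group overlapping, and the call depended on the tool (adjusted p 0.216 in edgeR and 0.0287 in DESeq2). The difference of the responses was -1.51 (SE 0.60, 95% interval -2.81 to -0.20) and passed in neither tool, with an edgeR adjusted p of 0.247 and a DESeq2 adjusted p of 0.0936. It ran from -2.16 to -1.21 over the left-out libraries. The untreated wild-type library that shares the high Xist level stood at 1498 CPM of Egfr, above all 3 DSS-treated RelaΔhepStat3Δhep libraries. It is 1 library of mixed pattern, with Y-chromosome genes at 30.1 CPM. The part of the sex-linked pattern in the Egfr values was not tested. With the term for high Xist the RelaΔhepStat3Δhep response was -1.08 (SE 0.79, edgeR adjusted p = 0.658). That term covers all 3 DSS-treated RelaΔhepStat3Δhep libraries, and the SE without it was 0.43.

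Erbb3 (ENSMUSG00000018166; minus strand of mm9, chr10:128004579-128026708, 6016 exonic bases) encodes the neuregulin receptor. Its transcript stood at 160, 205 and 205 CPM in untreated wild-type mice and at 289, 268 and 281 CPM in those given DSS. It stood at 131, 156 and 116 CPM in untreated RelaΔhepStat3Δhep mice and at 178, 186 and 269 CPM after DSS. In both genotypes every DSS-treated library lay above every untreated one. The level after DSS was 1.47-fold higher in wild-type mice (log2 change 0.56, SE 0.18, edgeR adjusted p = 0.177) and 1.57-fold higher in RelaΔhepStat3Δhep mice (0.65, SE 0.18, edgeR adjusted p = 0.0514), so neither value passed the threshold over all genes. In RelaΔhepStat3Δhep mice the call was at the edge of the threshold, passing with DESeq2 (adjusted p = 0.0112), with a minimum of 10 counts in every library (0.0452) and without the second DSS-treated wild-type library (0.0451), and standing at 0.0451 to 0.172 over the left-out libraries. The responses of the genotypes differed by 0.09 (95% interval -0.47 to 0.66, edgeR adjusted p = 0.889).

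Untreated RelaΔhepStat3Δhep livers lay below all untreated wild-type livers in Erbb3 by 1.41-fold (log2 change -0.50, SE 0.18, no test). In DSS-treated mice the genotypes overlapped at 1 library and the difference was -0.41 (SE 0.18, edgeR adjusted p = 0.341). From high to low the group means were 279 ± 10.9 CPM (DSS-treated wild-type), 211 ± 50.4 (DSS-treated RelaΔhepStat3Δhep), 190 ± 26.2 (untreated wild-type) and 134 ± 20.2 (untreated RelaΔhepStat3Δhep, each SD, n = 3). Neighbours in this order overlapped, except for the last pair. With the term for high Xist, which covers every DSS-treated library of that genotype, the RelaΔhepStat3Δhep response was 0.48 (edgeR adjusted p = 0.65).

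Erbb2 (ENSMUSG00000062312; plus strand of mm9, chr11:98273784-98299030, 5210 exonic bases) had the lowest level of the 4 members, with 77 to 227 estimated counts per library. The transcript of the ligandless receptor stood at 2.18, 2.36 and 1.31 CPM in untreated wild-type mice, at 1.97, 1.23 and 1.98 CPM after DSS, at 1.83, 3.13 and 2.04 CPM in untreated RelaΔhepStat3Δhep mice and at 1.87, 1.64 and 2.09 CPM after DSS. All 4 groups overlapped. The tested differences ran from -0.32 (DSS in RelaΔhepStat3Δhep mice, 95% interval -0.98 to 0.33) to 0.11 (genotype in DSS-treated mice, -0.55 to 0.77) on the log2 scale, with edgeR adjusted p-values of 0.56 to 0.91. Leaving out single libraries turned the sign of several of them. Erbb2 shares 9 exonic bases with 1810046J19Rik on the other strand, and the other genes that overlap a member share no exonic base with it.

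**Figure D2:**
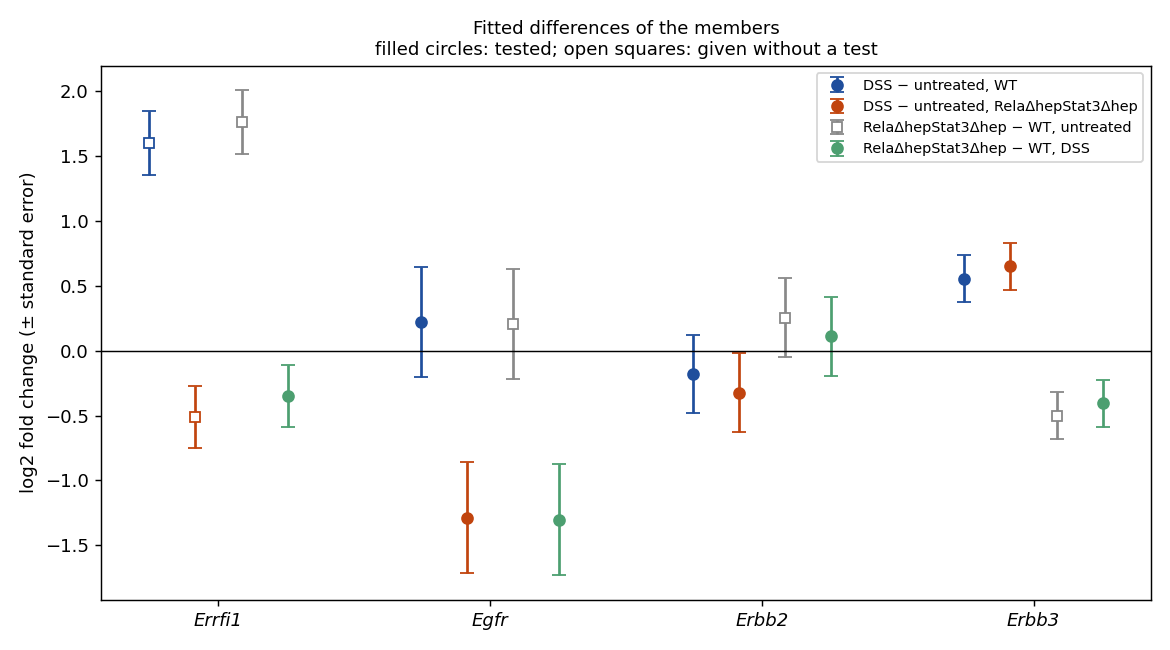
Fitted log2 fold changes of the 4 genes in 4 comparisons, with bars of 1 standard error. Errfi1 sits at 1.60 after DSS in wild-type mice and at -0.51 in RelaΔhepStat3Δhep mice, while Erbb3 sits at 0.56 and 0.65.

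Read against all 17652 genes, the tested members gave no call in edgeR. After DSS in wild-type mice edgeR called 0 of the 3 receptors (1 had an unadjusted p under 0.05, and DESeq2 called 0), where 0.453% of all genes were called higher and 0.232% lower. An unadjusted p under 0.05 was held by 14.5% of all genes, and DESeq2 called 5.98% of those to which it gave an adjusted p. Errfi1 and Erbb3 were higher without overlap, as were 9.49% of all genes, and no member was lower without overlap (9.21% of all genes). After DSS in RelaΔhepStat3Δhep mice edgeR called 0 of 3 receptors (2 at an unadjusted p under 0.05, and 2 in DESeq2, Erbb3 and Egfr), with 4.57% of all genes called higher and 2.46% lower in edgeR. The shares of all genes were 24.1% at an unadjusted p under 0.05 and 15.6% in DESeq2. Erbb3 was higher without overlap (17.8% of all genes), and Errfi1 and Egfr were lower without overlap (14% of all genes).

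Between genotypes in untreated mice, the comparison that Errfi1 was proposed from, 0.034% of all genes were called higher in RelaΔhepStat3Δhep mice and 0.0283% lower. Errfi1 was higher there without overlap (9.56% of all genes) and Erbb3 lower (10.7%). In DSS-treated mice edgeR called 0 of the 4 members (2 at an unadjusted p under 0.05, and Egfr in DESeq2), where 0.187% of all genes were called higher and 0.147% lower, 14.3% had an unadjusted p under 0.05 and DESeq2 called 4.45%. No member was free of overlap there, while 8.8% of all genes were higher and 7.98% lower without overlap. For the difference of the responses edgeR called 0 of 3 receptors (1 at an unadjusted p under 0.05, 0 in DESeq2), against 0.244% of all genes with a higher and 0.164% with a lower response in RelaΔhepStat3Δhep mice, 16.3% at an unadjusted p under 0.05 and 4.52% in DESeq2. The comparisons share groups of libraries, so their counts are not separate evidence.

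Per kilobase of exon, the scale on which genes can be set side by side, Egfr was the most abundant receptor transcript in all 12 libraries. Its mean level was 146 CPM per kb in untreated wild-type mice, 170 after DSS, 168 in untreated RelaΔhepStat3Δhep mice and 68.8 after DSS. Erbb3 stood at 31.6, 46.4, 22.3 and 35.1 CPM per kb in the same groups, and Erbb2 at 0.375, 0.331, 0.448 and 0.358. Errfi1 stood at 97.2, 295, 330 and 232 CPM per kb. Egfr made up 76.1%, 86.3% and 79.4% of the 3 receptor transcripts in untreated wild-type mice and 70.5%, 79.5% and 82.3% after DSS. In RelaΔhepStat3Δhep mice its share was 89.5%, 86.4% and 88.2% untreated and 55.9%, 61.2% and 72.5% after DSS. The share was lower in all 3 DSS-treated RelaΔhepStat3Δhep libraries than in all 3 untreated ones, and Erbb3 held nearly all of the rest.

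The level of the inhibitor transcript relative to that of the receptor (Errfi1 over Egfr, both per kb) was 0.882, 0.559 and 0.709 in untreated wild-type mice. After DSS it was 2.81, 1.99 and 0.966, higher in all 3 libraries. In RelaΔhepStat3Δhep mice it was 1.94, 2.12 and 1.82 untreated, and 6.89, 4.92 and 1.61 after DSS. These last groups overlapped, and the third DSS-treated library, which had the most Egfr of its group, had the lowest ratio. The untreated RelaΔhepStat3Δhep ratios all lay above the untreated wild-type ratios. The ratio uses the values that Errfi1 was proposed from and is given with no test.

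**Figure D3:**
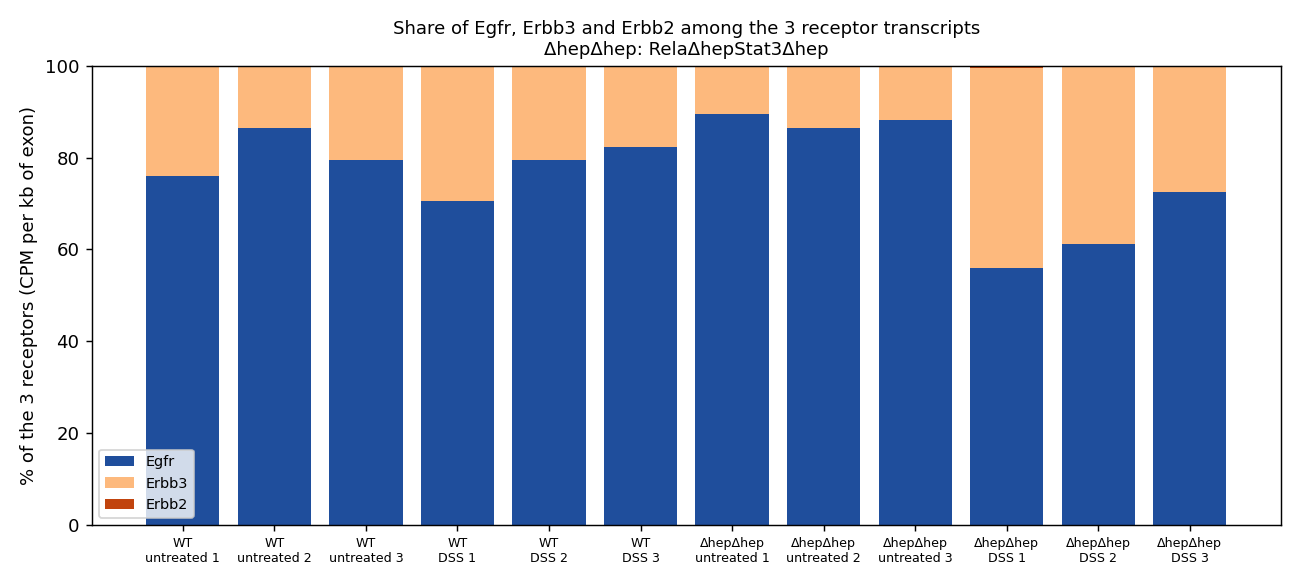
Share of Egfr, Erbb3 and Erbb2 in the summed CPM per kb of the 3 receptor transcripts in each of the 12 libraries, as stacked bars from 0 to 100%. Egfr fills 55.9% to 72.5% of the bars of DSS-treated RelaΔhepStat3Δhep livers and 70.5% to 89.5% of the others, and Erbb2, at most 0.53%, is too small to see.

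The pathway around these receptors was described from a list of 84 genes, of which 76 had a row and 71 could be tested. Following DSS, 12 of the 71 were called by edgeR in RelaΔhepStat3Δhep mice, 10 higher and 2 lower, and 1 in wild-type mice, with medians of 0.20 and 0.17 over the list against -0.01 and 0.02 over all genes. Over all genes edgeR called 4.57% higher and 2.46% lower in RelaΔhepStat3Δhep mice, and 0.453% and 0.232% in wild-type mice. DESeq2 called 21 and 7 of the list, beside 15.6% and 5.98% of all genes. The number of calls in RelaΔhepStat3Δhep mice fell to 2 without the second untreated library, to 6 without the first untreated, the third untreated or the first DSS-treated library, and to 0 with a term for the libraries high in Xist. Calls over all genes fell as well, from 806 higher and 434 lower to 153 and 88 without the second untreated library, to 481 and 255, 320 and 205, and 279 and 130 without the other 3 in turn, and to 0 and 4 with the Xist term. Between genotypes edgeR called 0 of the 71 in untreated mice (10 at an unadjusted p under 0.05, DESeq2 0) and 0 in DSS-treated mice (16, DESeq2 5), beside 11.7% and 14.3% of all genes at an unadjusted p under 0.05 and 2.29% and 4.45% in DESeq2.

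**Figure D4:**
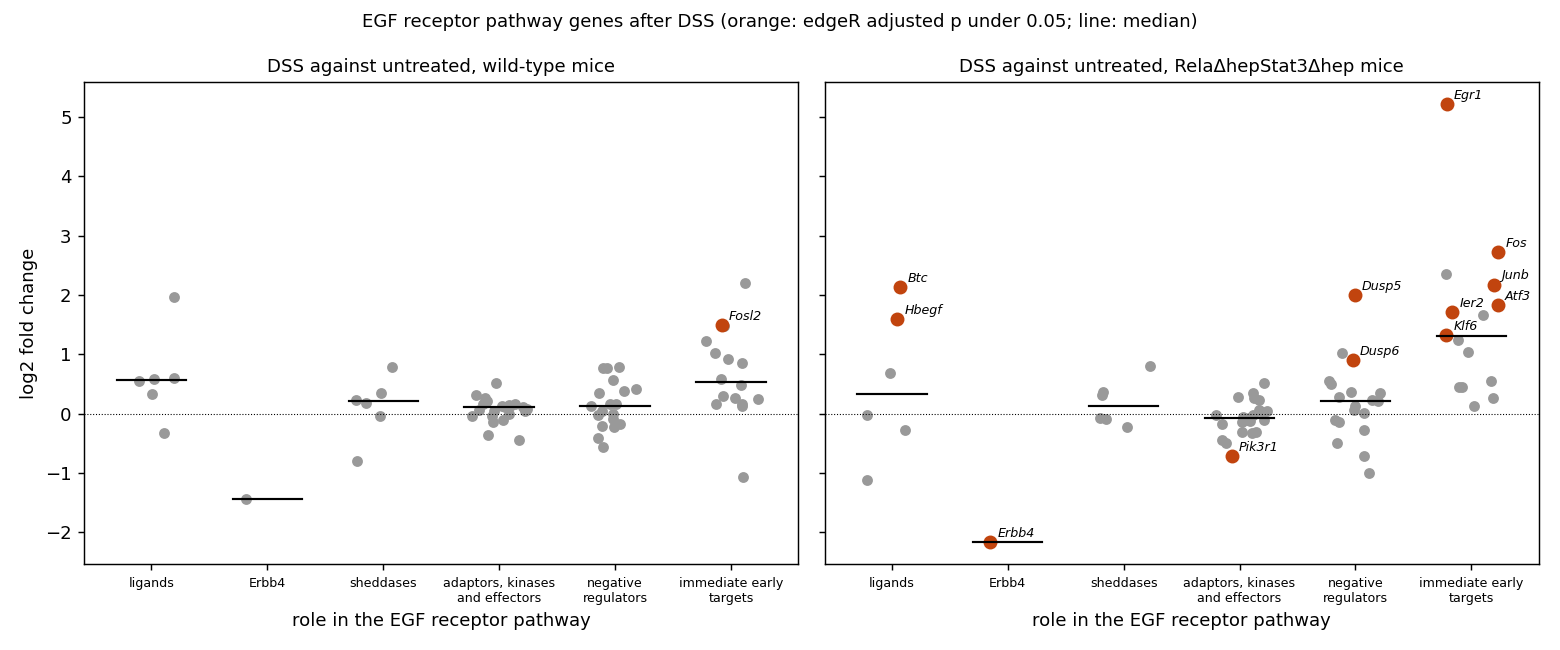
Log2 fold changes after DSS of the 71 tested pathway genes, grouped by role, in wild-type mice (left) and RelaΔhepStat3Δhep mice (right), 2 comparisons that share no library. Orange points passed an edgeR adjusted p of 0.05, 1 on the left and 12 on the right, and the line is the median of each role.

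Of the ligands, 6 of 11 were tested. Betacellulin (Btc) rose from 2.98, 1.35 and 1.35 CPM to 7.56, 10.8 and 6.47 CPM after DSS in RelaΔhepStat3Δhep mice (log2 change 2.13, edgeR adjusted p = 0.00775). HB-EGF (Hbegf) rose from 0.465, 0.883 and 0.85 to 2.83, 1.88 and 1.94 CPM (1.59, edgeR adjusted p = 0.0154). Both ligands bind EGF receptor, and they were the 2 of 6 that edgeR called, where it called 4.57% of all genes higher. DESeq2 also called 2 of the 6 higher, beside 15.6% of all genes in either direction. Both ligands were higher without overlap, as were 17.8% of all genes. Without the second untreated RelaΔhepStat3Δhep library neither passed, and Hbegf also missed without the first DSS-treated one. In wild-type mice no ligand passed, and the lowest p-values were those of Tgfa, which encodes TGF-alpha (0.61, edgeR adjusted p = 0.193), and of Nrg4, a neuregulin (1.96, edgeR adjusted p = 0.426). The Nrg4 value rested on the second DSS-treated library at 96.4 CPM, against 6.40 and 4.16 CPM in the other two. The difference of the responses was 1.55 for Btc and 1.25 for Hbegf and did not pass (edgeR adjusted p = 0.183 and 0.212). Between genotypes the lowest p-values were those of Btc (-0.98) and Hbegf (-0.85) in untreated mice and of Nrg4 (-2.33) and Tgfa (-0.44) in DSS-treated mice, none of which passed.

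Erbb4, the remaining receptor of the family, which like Erbb3 binds neuregulins, fell after DSS in RelaΔhepStat3Δhep mice from 11.2, 8.89 and 3.51 to 2.07, 1.40 and 1.78 CPM (log2 change -2.17, SE 0.43, edgeR adjusted p = 0.0135). In wild-type mice it stood at 13.4, 5.96 and 9.93 CPM untreated and at 4.05, 2.23 and 4.47 CPM after DSS, again without overlap, which passed in DESeq2 and not in edgeR (-1.45, adjusted p = 0.129). The responses differed by -0.72 (edgeR adjusted p = 0.556). The call in RelaΔhepStat3Δhep mice was lost without the second untreated or the second DSS-treated library (edgeR adjusted p up to 0.061).

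None of the 6 sheddases, the proteases and helper proteins that release the ligands, passed in any comparison in edgeR, while 3 of 6 had an unadjusted p under 0.05 after DSS in RelaΔhepStat3Δhep mice and 2 of 6 in wild-type mice, beside 24.1% and 14.5% of all genes. DESeq2 called 2 of 6 higher in RelaΔhepStat3Δhep mice, beside 15.6% of all genes. The lowest p-values after DSS were those of Rhbdf2, a partner of the protease ADAM17 (0.79 in wild-type and 0.81 in RelaΔhepStat3Δhep mice), of Adam17 (0.32 in RelaΔhepStat3Δhep mice) and of Adam12 (-0.79 in wild-type mice). Of the 23 adaptors, kinases and effectors tested, edgeR called 1, in the comparison in which it called 4.57% of all genes higher and 2.46% lower. DESeq2 called 3 lower there and 1 higher after DSS in wild-type mice, beside 15.6% and 5.98% of all genes. Pik3r1, the regulatory subunit of PI3K, fell after DSS in RelaΔhepStat3Δhep mice from 176, 182 and 149 to 97.5, 121 and 90.6 CPM (-0.71, edgeR adjusted p = 0.0375), and missed the threshold when any of 6 libraries was left out. In wild-type mice the lowest p-values of that group were those of Nras (0.52, edgeR adjusted p = 0.0868) and Stat5b (0.31).

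Among the 19 negative regulators tested, edgeR called 2, both phosphatases that act on MAP kinases and both higher after DSS in RelaΔhepStat3Δhep mice, where it called 4.57% of all genes higher. DESeq2 called 4 there, 2 after DSS in wild-type mice, 1 between genotypes after DSS and 1 for the difference of the responses, all higher, beside 15.6%, 5.98%, 4.45% and 4.52% of all genes in either direction. Dusp5 rose from 1.05, 0.814 and 1.61 to 5.19, 3.76 and 4.89 CPM (log2 change 1.99, edgeR adjusted p = 0.0266) and Dusp6 from 38.0, 48.9 and 58.9 to 66.9, 113 and 91.2 CPM (0.90, edgeR adjusted p = 0.0446). Each was lost without several single libraries, 5 for Dusp5 and 8 for Dusp6. In wild-type mice the lowest p-values were those of the ubiquitin ligase Cblb (0.78, edgeR adjusted p = 0.0965) and the phosphatase Ptpn1 (0.77, 0.108). Errfi1, itself a negative regulator, was lower after DSS in the RelaΔhepStat3Δhep mice in which these 2 phosphatases were higher.

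Immediate early genes, which growth factor signalling switches on within minutes, held more edgeR calls after DSS than the other roles, with 6 of 16 higher after DSS in RelaΔhepStat3Δhep mice (median log2 fold change 1.31) and 1 of 16 in wild-type mice (median 0.53) in edgeR, which called 4.57% and 0.453% of all genes higher. DESeq2 called 9 higher in RelaΔhepStat3Δhep mice, and 2 higher and 1 lower in wild-type mice, beside 15.6% and 5.98% of all genes. Klf6 stood at 16.1, 15.3 and 16.2 CPM untreated and at 39.9, 39.7 and 39.2 CPM after DSS in RelaΔhepStat3Δhep mice, a rise of 1.32 on the log2 scale with an edgeR adjusted p of 0.000666. Fos rose by 2.71 (edgeR adjusted p = 0.00623), and these 2 calls held without any single library. Egr1 stood at 6.45, 5.30 and 3.43 CPM untreated and spread from 20.4 to 386 CPM after DSS (5.21, edgeR adjusted p = 0.0151). Junb (2.17), Atf3 (1.82) and Ier2 (1.71) also rose, with edgeR adjusted p-values of 0.0311, 0.0328 and 0.02. Leaving out any one of 5 libraries lost the call for Junb, of 3 for Atf3, of 4 for Ier2 and of 2 for Egr1. Junb and Atf3 were also lost with no filter and with the replicate block. Atf3, Ier2 and Egr1 were lost with only the groups compared. In wild-type mice Fosl2 rose from 6.70, 6.90 and 8.64 to 15.9, 30.6 and 16.0 CPM (1.49, edgeR adjusted p = 0.0201), a call lost without any one of the 3 untreated libraries. That call was also lost with only the groups compared and with the term for high Xist (edgeR adjusted p = 0.0571). Klf6 had the only pathway call for the difference of the responses (1.08, edgeR adjusted p = 0.0431), and in wild-type mice it stood at 19.5, 20.4 and 26.0 CPM untreated and at 26.8, 29.4 and 21.6 CPM after DSS, with overlap. In 5 of 5 tested Kupffer cell markers the DSS-treated RelaΔhepStat3Δhep livers were also called higher (Clec4f, Cd5l, Marco, Vsig4 and Timd4, beside 4.57% of all genes), with sums of 514 to 837 CPM against 249 to 273 CPM untreated. Of the monocyte and neutrophil markers 5 were tested, and all were higher, 1 (Csf3r) by edgeR's threshold and 5 by that of DESeq2 (15.6% of all genes), with sums of 23.0 to 60.7 CPM against 7.17 to 9.19 CPM. The 6 tested lymphocyte markers were higher by sign, none of them called by either tool, with 3 at an unadjusted p under 0.05 in edgeR and sums of 4.49 to 10.1 CPM against 3.16 to 3.28 CPM. Of 5 stellate cell markers 4 were higher by sign, 3 had an unadjusted p under 0.05 (24.1% of all genes) and edgeR called 1 higher (Des), beside 4.57% of all genes. Of 5 erythroid markers 1 was higher by sign, and edgeR called 1 lower (Alas2), beside 2.46% of all genes. DESeq2 called 1 higher and 1 lower in these lists, beside 15.6% of all genes in either direction. Of the 6 tested male-biased liver genes all were lower, 3 of them called by edgeR (C6, Cyp2u1 and Elovl3), beside 2.46% of all genes called lower. Of the 9 tested female-biased ones all were higher, 2 of them called by edgeR (Hao2 and Slc22a26), beside 4.57% called higher. DESeq2 called 6 lower and 4 higher, beside 15.6% of all genes in either direction. The edgeR calls were lost with the term for high Xist. Each was also lost without any one of 4 libraries for C6 and Elovl3, 9 for Cyp2u1, 7 for Hao2 and 1 for Slc22a26. The part of these markers and sex-biased genes in the pathway calls was not tested.

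Because Errfi1 is known as a target of glucocorticoids, lists of glucocorticoid-induced and of circadian clock genes were set beside it. Of 15 glucocorticoid-induced genes edgeR called 1 after DSS in RelaΔhepStat3Δhep mice, a share near that of all genes (4.57% higher and 2.46% lower). DESeq2 called 1 higher and 3 lower there and 4 higher in wild-type mice, beside 15.6% and 5.98% of all genes. Between untreated genotypes 12 of the 15 were higher by sign (median 0.83), with 0 called by edgeR and 2 called higher by DESeq2 (2.29% of all genes). For the difference of the responses 1 of the 15 was higher by sign (median -1.46). There edgeR called 1 lower (0.164% of all genes) and DESeq2 called 3 lower (4.52% in either direction). Tsc22d3, which encodes the glucocorticoid-induced leucine zipper, stood at 181, 265 and 206 CPM untreated and at 43.2, 59.7 and 53.7 CPM after DSS (log2 change -2.06, edgeR adjusted p = 0.000467). The wild-type values were 119, 104 and 84.3 CPM untreated and 116, 82.0 and 76.5 CPM after DSS. Tsc22d3 was, like Errfi1, highest in untreated RelaΔhepStat3Δhep mice (1.09 against wild-type, edgeR adjusted p = 0.0794), and its responses differed by -1.89 (edgeR adjusted p = 0.015), a call lost without any one of 4 libraries. With the term for high Xist neither Tsc22d3 call passed (edgeR adjusted p = 0.18 for the response and 0.594 for the difference). Its wild-type groups overlapped, where those of Errfi1 did not. Of the 17 clock genes tested, 8 were called lower after DSS in RelaΔhepStat3Δhep mice, namely Hlf, Tef, Per2, Per3, Cry2, Dbp, Bhlhe41 and Nr1d2, where edgeR called 2.46% of all genes lower. With the term for high Xist none of these 8 passed (edgeR adjusted p of 0.221 to 0.599), under which 0 of all genes were called higher and 4 lower. Hlf, Tef and Per2 held without any single library, while Nr1d2 and Cry2 were each lost without any one of 3 libraries, Per3 and Dbp of 5 and Bhlhe41 of 9. In the same comparison 5 of the 17 clock genes were higher by sign, none called by edgeR (median of the list -1.10). Among these, Arntl had means of 23.9 CPM untreated and 42.5 CPM after DSS, and Npas2 of 2.35 and 15.6 CPM. Nr1d1, the clock repressor REV-ERB alpha, was lower in RelaΔhepStat3Δhep mice both untreated (-3.72, edgeR adjusted p = 0.000362) and after DSS (-4.08, edgeR adjusted p = 0.00016), and both calls held with that term (0.00363 and 0.0137). In these 2 comparisons edgeR called 0.0283% and 0.147% of all genes lower. Between untreated genotypes 13 of the 17 clock genes were higher by sign (median 0.28), none of them called by edgeR. Nr1d2 was also called lower between genotypes after DSS (-2.01, edgeR adjusted p = 0.0481), a call lost without any one of 9 libraries and with the term for high Xist. DESeq2 called 10 clock genes lower after DSS in RelaΔhepStat3Δhep mice and 1 lower in wild-type mice, beside 15.6% and 5.98% of all genes. Between genotypes it called 3 higher and 1 lower untreated (2.29% of all genes), and 1 higher and 6 lower after DSS (4.45%). For the difference of the responses it called 4 lower (4.52%). The time of day of tissue collection is not given in the labels, and the part of either list in the Errfi1 values was not tested.

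The 4 members did not follow one another across the 12 libraries, with Pearson correlations of log2 CPM between -0.28 (Erbb2 and Erbb3) and 0.15 (Egfr and Erbb2). The genes most like Errfi1 by this measure were Gm16154 and N28178 (0.88 each), Smg1 (0.87), Nufip2 (0.86) and Nebl (0.85). Gm16154 and N28178 were at 0.42 CPM or less in all libraries. Smg1, a kinase of nonsense-mediated decay, ran from 93.6 to 105 CPM in untreated wild-type mice and from 113 to 140 CPM in the other groups. The 5 genes depend on the setting, since only 1 of them remained with the Spearman rank correlation and 0 to 4 remained when single libraries were left out. Most like Erbb3 were Cyp51 (0.93), Flcn (0.92) and Sc4mol (0.92), of which Cyp51 and Sc4mol encode enzymes of cholesterol synthesis. Cyp51 stood at 146, 188 and 156 CPM in untreated wild-type mice and at 375, 254 and 337 CPM after DSS, then at 118, 152 and 109 and then 217, 226 and 309 CPM in RelaΔhepStat3Δhep mice. Most like Egfr were 1810021B22Rik (0.93), Smcr7l (0.91) and H13 (0.89), and most like Erbb2 were Ndufs7 (0.94), Snx29 (0.91) and 2610507B11Rik (0.89). All of these values are over the same 12 libraries in their 4 groups, which share treatment, depth and sex-linked pattern, and they are descriptions.

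**Figure D5:**
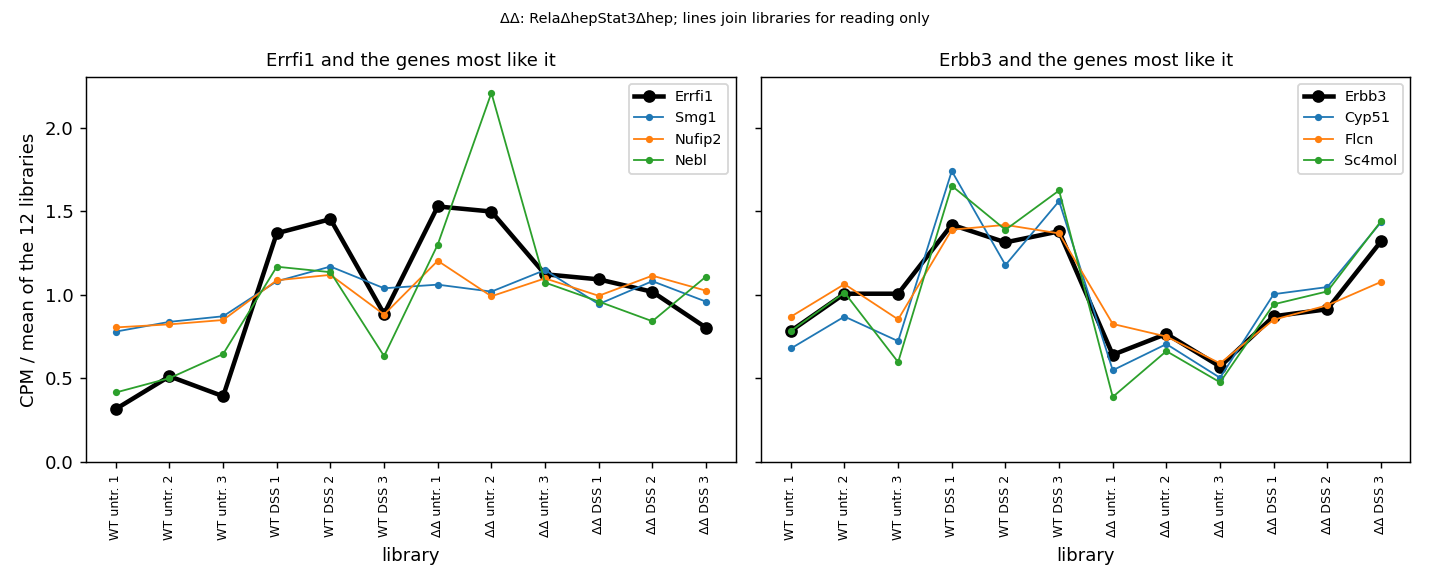
CPM divided by the mean of the 12 libraries for Errfi1 with Smg1, Nufip2 and Nebl (left) and for Erbb3 with Cyp51, Flcn and Sc4mol (right), library by library. Erbb3 and its 3 neighbours are all higher after DSS in both genotypes by group mean, while Smg1 and Nufip2 vary over a narrower range than Errfi1.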

How the data were processed

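rRNA-depleted liver RNA of 12 mice was sequenced from both ends. Per the study's methods and the submitters' processing notes, the authors trimmed reads with fastp, aligned them to mm9 with HISAT2 and counted genes with StringTie. The authors deposited the values as estimated counts (expected counts) in whole numbers, not normalized. Their totals exceed the number of fragments that the methods give per sample, so 1 unit is not 1 fragment. Strand use in counting is not given in the sources used here. GENCODE vM1 named 28677 of the 51609 rows.

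Analyses used edgeR 4.0.16 and DESeq2 1.42.0 (with limma 3.58.1) under R 4.3.3. Genes passing filterByExpr (17652) were normalized by TMM (factors 0.758 to 1.13) and tested with edgeR's robust quasi-likelihood F test in 1 model of 4 groups, with Benjamini-Hochberg adjustment over all genes and a threshold of 0.05. Intervals of 95% come from the same fit. Correlations used log2 CPM with a prior count of 2. P-values set a difference against the spread between livers of the same group, as estimated over all 4 groups of 3 livers and shared in part across genes. The steps were tested on simulated data. No 2 libraries of the same group were duplicates of each other.

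The members, lists and tests were chosen with earlier results of these data known. Named are the members, the genes of the lists below past the threshold in edgeR (otherwise the 2 lowest p-values of a list, not all of which are printed), and the 5 genes most like Errfi1 and 3 most like each receptor. The lists of pathway genes, glucocorticoid-induced genes, clock genes, and hepatocyte, Kupffer cell, monocyte and neutrophil, lymphocyte, stellate cell and erythroid markers, and male- and female-biased liver genes are printed with their counts. Cholangiocyte and sinusoidal endothelial cell markers are given for DSS in wild-type mice. Alternatives were the DESeq2 Wald test, DESeq2 size factors, no filter, a minimum of 10 counts per library, a replicate block, a fit to the compared groups alone, a term for libraries with over 100 CPM of Xist, Spearman correlation and leaving out each library. RefSeq start sites of GRCm38.p6 gave the sequences. Protein, histology and metabolite measurements were not analysed here.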

Additional observations from a re-analysis of the deposited data

Results flagged for a closer look

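Errfi1 differed between the genotypes in the direction of its response to DSS. All 3 DSS-treated wild-type livers lay above all 3 untreated ones, and all 3 DSS-treated RelaΔhepStat3Δhep livers lay below their untreated group, with a fitted difference of the responses of -2.11 on the log2 scale. The RelaΔhepStat3Δhep response was small, at -0.51 (SE 0.24), and was -0.43 (SE 0.45) with the term for high Xist. It cannot be told apart from the female pattern of the DSS-treated RelaΔhepStat3Δhep libraries. The difference of the responses was not tested, since Errfi1 was proposed from its untreated values.

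Klf6, an immediate early transcription factor, also responded differently in the genotypes, by 1.08 on the log2 scale in the interaction test of edgeR (adjusted p = 0.0431). The call was lost without any one of 10 of the 12 libraries, with edgeR adjusted p-values of 0.0375 to 0.128. It was also lost with DESeq2 size factors, with the replicate block and with the term for libraries high in Xist (edgeR adjusted p = 0.707), a term that covers all 3 DSS-treated RelaΔhepStat3Δhep libraries.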

How the results depend on the processing

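Errfi1 kept the sign of its fitted value in all comparisons and settings run. All of them except genotype after DSS reuse the untreated libraries from which Errfi1 was proposed, so for those this is a description. With the term for high Xist its RelaΔhepStat3Δhep response was -0.43, with an SE of 0.45. The responses of Egfr in wild-type mice ran from -0.051 to 0.64 over the left-out libraries, turning sign without the first untreated or the third DSS-treated library. Egfr passed with DESeq2 after DSS in RelaΔhepStat3Δhep mice (-1.31) and between genotypes after DSS (-1.305), and the first ran from -1.94 to -1.01 over the left-out libraries. The Erbb3 response in RelaΔhepStat3Δhep mice passed with DESeq2 (0.627) and with 10 counts in every library (0.625), and ran from 0.44 to 0.78 over the left-out libraries. The difference of the Erbb3 responses, at 0.09, ran from -0.12 to 0.22 and was -0.13 with the term for high Xist. Erbb2, at 77 to 227 counts, ran from -0.40 to 0.013 after DSS in wild-type mice, from -0.083 to 0.22 between genotypes after DSS and from -0.35 to 0.13 for the difference of the responses. With the Xist term its RelaΔhepStat3Δhep response was 0.47 and the difference of the responses 0.87. That term rests on 1 library outside the DSS-treated RelaΔhepStat3Δhep group.

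Of the 71 pathway genes, DESeq2 called 7 after DSS in wild-type mice, 21 in RelaΔhepStat3Δhep mice, 5 between genotypes after DSS and 3 for the difference of the responses, against 1, 12, 0 and 1 in edgeR. With only the groups compared, edgeR called 0 after DSS in wild-type mice and 1 between untreated genotypes. For the difference of the responses it called 0 with DESeq2 size factors, 0 with the replicate block and 0 with the Xist term, which also left 0 after DSS in RelaΔhepStat3Δhep mice. Over the left-out libraries the calls ran from 0 to 2, 2 to 15, 0 to 1 and 0 to 2 in the 4 comparisons named first. The cause of these shifts was not tested. The samples were not treated as paired by replicate number. Only 1 of 18 same-numbered pairs correlated above 0.1 (range -0.089 to 0.17). Pairs with different numbers were not set beside them, so this cannot exclude pairing. The replicate block changed no call of a member. A comparison of only the groups involved was not run for the difference of the responses, which needs all 4.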
